A study of Homo sapiens with 12 samples.

Results

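The genes described are SFPQ, NCL, EIF5B and PRRC2C, which encode proteins that bind RNA or act in translation. They were chosen from the data: each holds an interval with a score of 3100 or more in all 6 deposited peak lists of a MeRIP-seq study of H460 cells. Every interval overlapping a gene by 1 bp or more on its strand was taken, which gave 111 of the 53502 intervals in the lists. Intervals of different lists that share at least 1 bp on a strand were joined into regions, of which 27 of 20742 lie in the 4 genes.

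MeRIP-seq pulls down RNA fragments with an antibody to N6-methyladenosine (m6A) and sequences them together with a library of the RNA before pull-down. H460, an established cell line from a human large cell lung cancer, is given as wild type in the labels. There are 12 libraries in 4 groups of 3. They hold RNA before pull-down (input) and after immunoprecipitation (IP) from untreated cells, and the same from cells exposed to 100 nM rapamycin for 24 h, a drug that inhibits mTORC1 and was used to induce autophagy. All RNA was depleted of ribosomal RNA, and the labels do not say whether replicates came from separate cultures.

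m6A is written on nascent transcripts mainly by the METTL3 and METTL14 complex and is read by YTH domain proteins, which affect how long an mRNA persists and how it is translated. In mRNAs it is known to concentrate in long internal exons and around stop codons. SFPQ is a splicing factor and a core protein of nuclear paraspeckles. NCL, nucleolin, is an abundant nucleolar protein that takes part in ribosomal RNA production. EIF5B is the GTPase that promotes joining of the ribosomal subunits at the end of translation initiation. PRRC2C is a large proline-rich RNA-binding protein found in stress granules.

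The lists are called A to F. The GEO record ties all of them to untreated samples, A, C and E to inputs and B, D and F to IPs, whereas the names under which they were deposited carry con for A, B and C and rapamycin for D, E and F. The record and the names disagree, so no list was placed in a treatment arm, and values are given per list without a mean, SD or test. The lists hold 12040, 14908, 12288, 4837, 4530 and 4899 intervals in the order A to F. The read depth behind each list is unknown, so whether a region missing from a list was absent or undetected cannot be told apart.

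The score is the authors' own value for each interval. No source used here names its scale, but the highest values have a recognisable form. All 30 scores at or above 3213.06 lay within 0.006 of 10 times the negative log10 of a whole multiple, from 1 to 100, of the smallest positive number that double precision can hold. Such values make up 5.6% of those possible in that range at the precision of the files. The score therefore has the form of 10 times the negative log10 of a p-value, and 3233.06, the highest score in any list, is the limit of that scale. Exactly 3100 was carried by 3452 intervals. If 3100 stands for p-values too small to be held, scores between 3100 and 3233.06 belong to less extreme p-values than 3100 does. No order is therefore read among scores of 3100 or more. A score of this form can also rise with read depth.

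The genes occupy very different lengths of genome. In hg19, SFPQ lies on the minus strand at chr1:35641979-35658743 (16.8 kb) and NCL on the minus strand at chr2:232318242-232329186 (10.9 kb). EIF5B lies on the plus strand at chr2:99953816-100016728 (62.9 kb), and PRRC2C on the plus strand at chr1:171454666-171562650 (108.0 kb). Distances below run along the gene from its first base at the 5′ end and include introns. Exons were not placed, because an hg19 annotation was not used here.

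**Figure D1:**
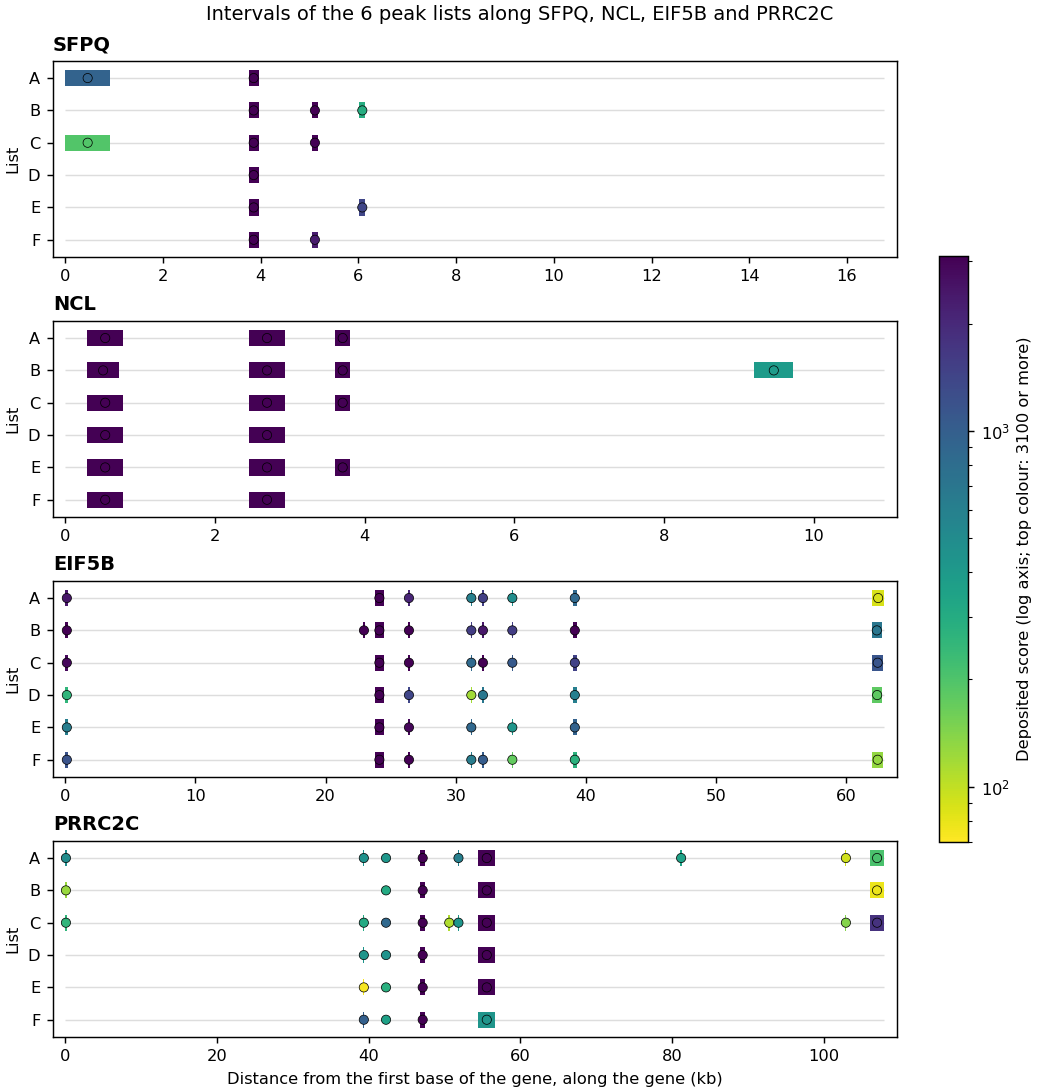
Intervals of lists A to F (rows) along each gene, with distance from the first base of the gene in kb on the x axis. Bars are intervals to scale, circles mark their centres, and colour gives the deposited score on a log scale. NCL is dark throughout apart from 1 distal interval in list B, whereas EIF5B and PRRC2C mix dark and pale intervals.

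At the threshold that defined the 4 genes, 23 of all 20742 regions (0.111%) scored 3100 or more in every list, and 5 of them lie in these genes. NCL holds 2 of the 5 and the other genes hold 1 each. These values chose the genes and are given as a description. The region just outside the threshold lies elsewhere, at chr9:131937831-131940540 on the minus strand, with 3100 in 5 lists and 2922.37 in list A. The next one, at chr7:139415731-139416814 on the minus strand, fell to 2640.22 in list F.

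SFPQ carried the fewest intervals, and none reached further than 6141 bp from the first base of the gene. It had 2, 3, 3, 1, 2 and 2 intervals in lists A to F, covering 1118, 437, 1236, 197, 319 and 315 bp. The shared region is chr1:35654787-35654983, 197 bp wide and 3760 bp from the 5′ end. Its score was 3100 in lists A, B, C and D, 3203.81 in E and 3230.05 in F. The last 2 values are the highest numbers in their lists, but no rank above the intervals at 3100 is read from them. The value 3230.05 corresponds to 2 times the smallest number that double precision holds. In list D the shared region held the only SFPQ interval.

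The other SFPQ regions came and went between lists. The first, chr1:35657823-35658743 (921 bp), reaches exactly to the first base of the gene and was present in A with a score of 943.86 and in C with 195.22. A 118 bp region at chr1:35653574-35653691 scored 3100 in B and C and 2323.44 in F, and was missing from A, D and E. A 122 bp region at chr1:35652602-35652723 scored 290.51 in B and 1409.86 in E. No list held all 4 SFPQ regions, and the 2 lists with the 122 bp region are not the 2 with the region at the 5′ end. Among the shorter lists, F held the 118 bp region and E the 122 bp region, and neither held the region at the 5′ end.

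NCL was the most uniform of the 4 in score. It had 3, 4, 3, 2, 3 and 2 intervals in lists A to F, covering 8.75% to 14.8% of the gene, and 16 of its 17 intervals scored exactly 3100. Scores pile up at that value, so equal scores there need not mean equal signal. Over all genes, intervals at 3100 or more made up 3.74%, 11.8%, 10.0%, 1.47%, 1.57% and 1.10% of lists A to F, and 6.78% of all intervals. Since the score chose the genes, nothing is read from this contrast. The region nearest the 5′ end, chr2:232328412-232328891 (480 bp, 295 bp from the first base), and the next, chr2:232326251-232326728 (478 bp, 2458 bp from it), stood at 3100 in every list. A 198 bp region at chr2:232325380-232325577 stood at 3100 in A, B, C and E and had no interval in D or F. For this region a list thus held either a score at the pile-up value or no interval, with nothing between.

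The only NCL interval below 3100 lay far from the others. It is chr2:232319459-232319978 (520 bp), 9208 bp from the 5′ end and 1217 bp before the other end of the gene. It occurred in list B, the longest list, with a score of 393.44, at percentile 51.3 of that list. A percentile here is the rank of an interval's score within its own list, ties sharing their average rank. NCL hosts the small nucleolar RNA genes SNORA75, SNORD20 and SNORD82, per RefSeq on GRCh38. Their places relative to the intervals were not examined, since the builds differ.

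EIF5B showed the richest repeated pattern. It had 8, 9, 8, 7, 6 and 8 intervals in lists A to F, in 9 regions of which 5 were held by all lists. The region that chose the gene is chr2:99977611-99978283 (673 bp, 23.8 kb from the 5′ end), at 3100 throughout. The 218 bp region that follows, chr2:99980108-99980325, scored 2085.63, 3100, 3100, 1405.51, 2891.62 and 3182.31 in A to F. In every list its percentile was 93.5 or more, so a region missing the threshold in 3 lists still ranked near the top of each.

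The first EIF5B region sits at the very start of the gene. It is chr2:99953834-99954052 (219 bp) and begins 18 bp from the first base. From A to F its scores were 2462.49, 3100, 2847.82, 261.33, 618.8 and 1166.74. The scores of A, B and C lay above those of D, E and F without overlap. The median scores of the whole lists did too, at 242.125, 371.24 and 346.885 against 191.11, 182.87 and 168.11. Regions of 90 and 75 bp further along EIF5B also split this way in the lists that held them. The 218, 99, 290 and 959 bp regions of EIF5B did not. List E outscored A in the 218, 99 and 290 bp regions, and D outscored A in the 959 bp region. The share of all regions with such a split was not counted, so nothing is read from the regions that split. The percentiles of the first region did not separate: from A to F they were 94.8, 93.9, 89.1, 61.7, 84.0 and 94.4. In list F the region thus ranked between its ranks in A and B.

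A run of short intervals followed downstream. Regions of 99, 90 and 75 bp lay 31.1, 32.0 and 34.3 kb from the 5′ end, and a 290 bp region lay at 39.0 kb. The 99 bp region, chr2:99984956-99985054, was in every list and scored 602, 1574.02, 848.41, 118.74, 877.09 and 634.13 in A to F. The 90 bp region, chr2:99985855-99985944, scored 1524.79, 2440.12, 3080.74, 687.26 and 1024.19 in A, B, C, D and F and was missing from E. Where both were present the 90 bp region outscored the 99 bp region, in 5 of 5 lists, so the narrower of these neighbours had the higher score.

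The 75 bp region, chr2:99988119-99988193, scored 486.74, 1581.19, 1076.1, 422.15 and 173.61 in A, B, C, E and F, and was missing from D. The 290 bp region, chr2:99992810-99993099, was in every list with 867.2, 3100, 1471.25, 608.47, 955.76 and 276.41. Both had their highest score in B. List B also held a 126 bp region at chr2:99976699-99976824, at 3100, that no other list held.

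The last EIF5B region reached the 3′ end of the gene. It is chr2:100015770-100016728 (959 bp) and ends on the last base of the gene. Its scores were low in A, D and F, at 88.2, 178.8 and 129.19, and higher in B and C, at 702.41 and 1140.23. List E had no interval there. Percentiles ran from 10.6 in A to 75.4 in C, the widest range of percentiles among the EIF5B regions. In RefSeq on GRCh38 the REV1 gene overlaps EIF5B without lying wholly inside it. Its place relative to this region was not examined, since the builds differ. No source used here says how the lists' strand was obtained, so reads may not be told apart where genes overlap.

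**Figure D2:**
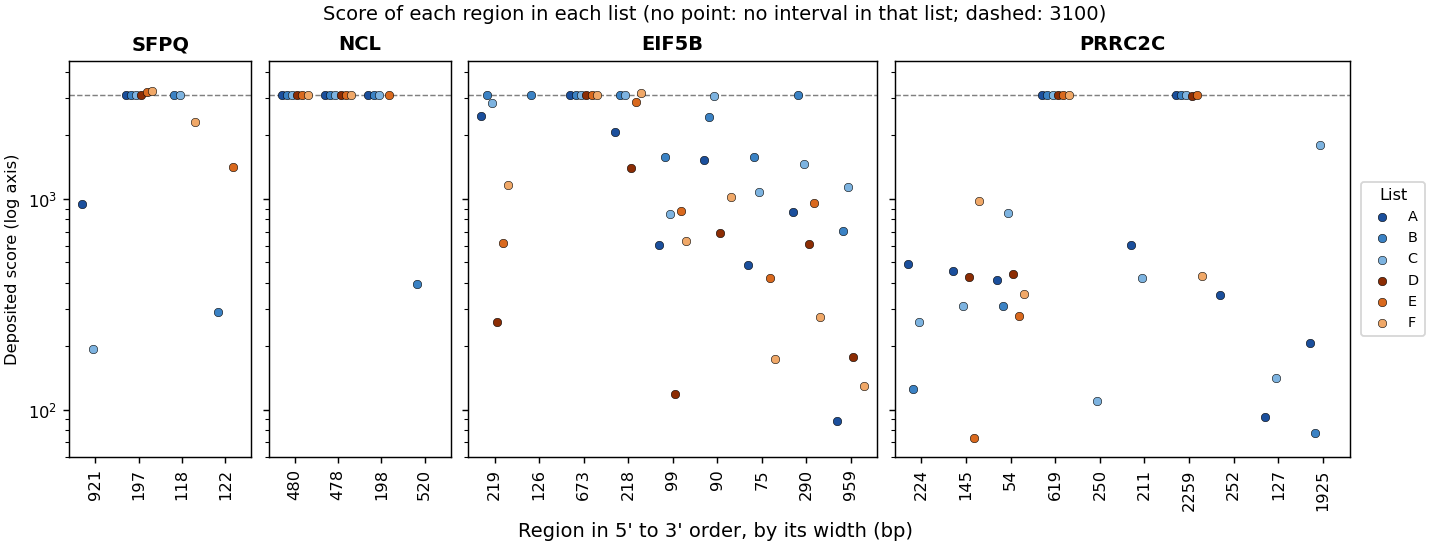
Deposited score (y axis, log scale) of each region in lists A to F (coloured points), with regions in 5′ to 3′ order labelled by width in bp. Points on the dashed line stand at 3100, and a missing point means that the list held no interval. The 5 regions with all 6 points on or above the line are the ones that chose the genes.

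PRRC2C had the widest range of interval numbers between lists in absolute terms, from 4 to 9, although the range of SFPQ, from 1 to 3, is wider for its size. PRRC2C had 9, 5, 9, 4, 4 and 4 in lists A to F, covering 5816, 5060, 5814, 3077, 3077 and 3077 bp. The intervals of D, E and F fell in the same 4 regions with the same boundaries, and these regions lie between 39294 and 56702 bp from the 5′ end. The region by which PRRC2C was chosen is chr1:171501482-171502100 (619 bp, 46.8 kb from the 5′ end), at 3100 in every list.

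The widest region of the 4 genes is also in PRRC2C. It is chr1:171509110-171511368, 2259 bp wide with equal boundaries in every list, and its centre lies 51.5% of the way along the gene. It scored 3100 in A, B, C and E and 3064.41 in D, but 430.45 in F. List F was therefore alone in scoring this region far below 3100. The region still ranked above most intervals of list F, whose median score was 168.11. Its percentile was 80.2 in F, against 93.9 or more in the other lists. The neighbouring 619 bp region was at 3100 in F as elsewhere.

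A pair of short PRRC2C regions recurred at modest scores. The narrowest region of all, chr1:171496930-171496983, is 54 bp wide and scored 414.38, 310.64, 860.2, 439.83, 279.31 and 352.7 in A to F. Its percentiles lay between 45.6 and 76.1. A 145 bp region at chr1:171493960-171494104 was in every list but B and scored 454.6, 308.92, 427.11, 73.61 and 980.46 in A, C, D, E and F. Lists E and F, at percentiles 3.4 and 92.8, were furthest apart there.

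Both ends of PRRC2C were covered in A, B and C and in no other list. The region at the 5′ end, chr1:171454651-171454874 (224 bp), begins 15 bp before the first base of the gene and scored 491.79, 125.3 and 260.4 in A, B and C. The region at the 3′ end, chr1:171560726-171562650 (1925 bp), ends on the last base of the gene and scored 206.37, 77.74 and 1794.72. These are the only 2 of the 27 regions held by A, B and C alone, a pattern shown by 12.3% of all regions. The shared pattern goes with list length, since A, B and C hold 12040 to 14908 intervals and D, E and F 4530 to 4899. The part of list length in it was not tested.

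The remaining 4 PRRC2C regions were held by A, C or both. A 211 bp region at chr1:171506402-171506612 scored 607.33 in A and 421.5 in C, and a 127 bp region at chr1:171557518-171557644 scored 92.45 in A and 142.16 in C. The 250 bp region at chr1:171505168-171505417 occurred in C with 110.54. The 252 bp region at chr1:171535731-171535982 occurred in A with 350.94. List B, though the longest list, held none of these 4.

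**Figure D3:**
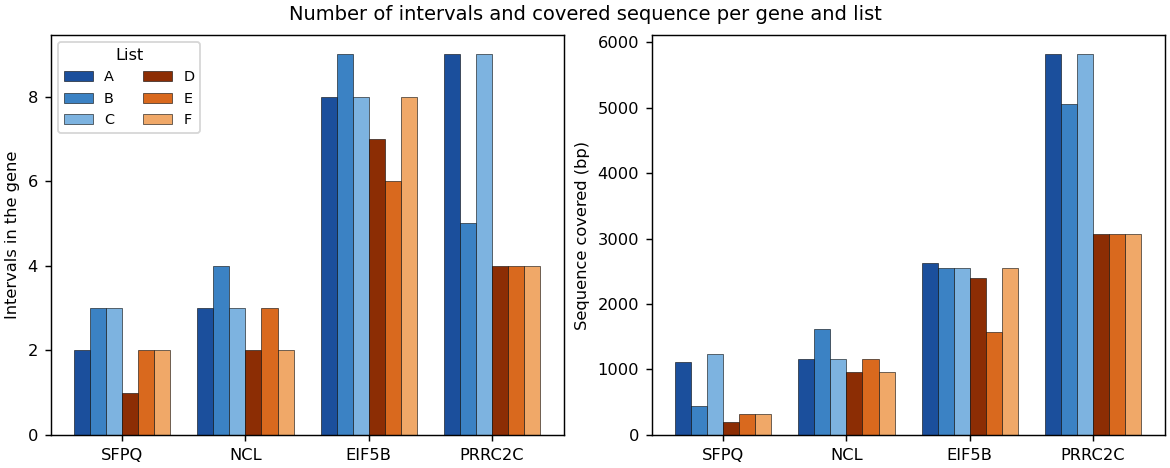
Number of intervals (left) and bp covered (right) in each gene, 1 bar per list from A to F. In PRRC2C lists D, E and F have 4 intervals and 3077 bp each, below A, B and C on both counts. In SFPQ they cover 197 to 319 bp, below the 437 to 1236 bp of A, B and C, while the numbers of intervals overlap. In NCL and EIF5B both measures overlap. The whole lists differ in the same direction. D, E and F hold 4530 to 4899 intervals over 4.77 to 5.4 Mb, and A, B and C 12040 to 14908 over 9.84 to 12.17 Mb.

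Across the 4 genes, 11 of 27 regions were held by all lists, against 8.30% of all regions. At least 1 such region per gene follows from how the genes were chosen, so the share is not evidence about them. Of the 11, 6 scored below 3100 in at least 1 list: 4 in EIF5B and 2 in PRRC2C. A further 4 regions were in 5 lists, 1 in 4, 3 in 3, 4 in 2 and 4 in 1 list. Over all regions, 36.9% were in 1 list. No region of these genes was held by D, E or F without also being in A, B or C, where 4.81% of all regions were. Conversely, 9 of the 27 were missing from D, E and F together, as were 61.6% of all regions.

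The exact limits of the regions repeated between lists. Of the 11 regions held by all lists, 10 had the same start and the same end in each, against 58.5% of the 1676 regions with 1 interval in every list. The exception is the NCL region nearest the 5′ end, whose interval in list B starts at 232328468 where the others start at 232328412. It was 424 bp wide in B and 480 bp elsewhere. Counting every region held by 2 or more lists, 20 of 23 had equal limits. Of the 11 regions, 5 are the ones that chose the genes, and the rest lie in the same genes. Nothing is therefore read from the contrast with 58.5%.

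The other 2 with unequal limits are the regions at the 3′ ends of EIF5B and PRRC2C. In EIF5B every interval started at 100015770, and the ends were 100016728, 100016529, 100016659, 100016577 and 100016655 for A, B, C, D and F. In PRRC2C the start was 171560726 throughout, and the end was 171562650 in A and C and 171562629 in B. In both genes the limit that varied was thus the one at the end of the gene. The lists may share processing steps, so equal limits are a description of the files.

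Pooled over the 4 genes, of which EIF5B gives 46 of the 111 intervals, the intervals were narrower than the median of each list. Their median width was 221.5, 219, 219, 254.5, 218 and 218.5 bp in A to F, against 452.5, 526, 631, 819, 829.5 and 624 bp over each whole list. Gene by gene this held in all but 3 of 24 pairs of gene and list. The exceptions were SFPQ and NCL in list A, with medians of 559 and 478 bp, and PRRC2C in list B, with 619 bp. The 24 pairs are not separate observations, since the same regions with equal limits recur between lists. Regions under 100 bp numbered 4 in these genes, 3 in EIF5B and 1 in PRRC2C, and 2 of the 4 were held by all lists. Of all 1699 regions under 100 bp, 2.24% were held by all lists. These regions lie in transcripts chosen for a shared high-scoring region, so the contrast is a description of the 4 genes.

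Position along the gene also varied by gene. The centre lay before the midpoint of the gene in 4 of 4 SFPQ regions, 3 of 4 NCL regions, 5 of 9 EIF5B regions and 6 of 10 PRRC2C regions. The regions at 3100 or more in all lists were centred 4.88% and 24.6% of the way along NCL, 23.0% along SFPQ, 38.4% along EIF5B and 43.6% along PRRC2C. None of these 5 lay at the 3′ end of its gene. No interval on the opposite strand overlapped any of the genes. Outside the genes, the nearest interval on the same strand was 149096 bp away for EIF5B and further for the others, up to 316589 bp for NCL.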

How the data were processed

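The files used are 6 peak lists of 6 columns without a header, giving position, a name for the peak, its score and its strand. The submitters' processing notes name the genome build hg19 and the tool HISAT2 2.0.4. Peaks are named as MACS names them by default, per the file contents. The caller's settings and the libraries behind each list are, for all lists, not given in the sources used here. Each deposited score is 1 value per peak, and the lowest value was 70 to 70.08 in each list.

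Gene ranges were those given with the choice of the 4 genes, and starts were converted to 1-based positions. Intervals were joined in Python 3.11.15 with pandas 2.3.3 and numpy 2.4.6. The joining code was tested on 2000 simulated regions and against bedtools 2.31.1, and 9 of 9 known values were recovered. All 4 symbols matched the gene name table. The members and lists were chosen with earlier results of these data known. All regions of the 4 genes are named, which goes beyond the rule for naming set for this work. Related genes were not placed, since the name table is of GRCh38. No sequence is printed for the same reason.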

Additional observations from a re-analysis of the deposited data

How the results depend on the processing

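Of 69 recomputed values, 65 stayed within their limit. The limit was 1.5 times for counts and covered lengths, and for percentiles the 95% Wilson interval at the length of the shortest list. Many of the 69 had little room to move. Leaving out a list cannot lower the number of regions held by all the others. Ignoring strand could add nothing, since no interval lay on the opposite strand. Each gene also keeps the region that chose it when a list is left out. The count of 65 is therefore not a measure of robustness. With a minimum score at the pooled median of all intervals, the median covered length of EIF5B became 1626.5 bp, against 2550 bp. With the score threshold lowered to 1000, EIF5B had 27 intervals past it, against 12 at 3100. With ties given their lowest rank, the median score percentile became 90.0 in SFPQ (94.8 with average ranks) and 96.3 in NCL (98.0). The last 2 follow from how ties are ranked, and the fall in covered length from the removal of low-scored intervals. Leaving out 1 list at a time, regions held by all the others numbered 1 in SFPQ, 2 in NCL, 5 to 7 in EIF5B (7 without list E) and 3 to 4 in PRRC2C (4 without list B). Leaving out scores above 3100, or tying them with 3100, was added after the data were seen and moved no value beyond its limit. No paired analysis was possible because no list was placed in an arm and no test was made. Depth is unknown, which limits what a missing interval shows.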

Other observations

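Of the 18 regions at 3100 or more in every list that lie outside the 4 genes, 3 were close neighbours on the minus strand of chromosome 10, at chr10:120797517-120797951, chr10:120801506-120802284 and chr10:120809313-120809497. Apart from these and the pair in NCL, no such region had another within 20 kb on its strand.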
